A study of Mus musculus with 34 samples.

Results

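Notch signalling genes were followed in 3 mouse colorectal cancer cell lines that had been exposed to the BRAF inhibitor encorafenib. The 10 genes were the receptors Notch1, Notch2 and Notch3, the ligands Jag1, Jag2, Dll1 and Dll4, and the target genes Hes1, Hey1 and Nrarp. They were chosen by name and all 10 were found among the 14107 genes of the count table. Total RNA had been sequenced from these lines, NaJa-D, NaJa-F and also NaJa-G, after 1 or 5 days in the solvent DMSO or in 0.5 µM encorafenib. Line, treatment and day defined 12 groups over 34 libraries, 3 in each group but 2 in 2 of them, NaJa-F encorafenib day 5 and DMSO day 5 of NaJa-G. All groups, the DMSO controls included, carried a Braf V600E allele, the Trp53 R172H allele and deleted Apc on the C57BL/6N background. These alleles had been recombined in colon organoids by the tamoxifen-dependent Cre of the Villin::CreERT2 transgene, which is active in intestinal epithelium. Each line had grown out of the peritoneal lavage of 1 recipient mouse, and all 3 came from the same donor organoid, so a line stands for 1 recipient mouse. Nothing in the labels says whether the libraries of a group came from separate cultures, and the p-values measure the spread between these libraries, which may be technical.

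Notch receptors are membrane proteins that are cut when a Jagged or Delta-like ligand on a neighbouring cell pulls on them. ADAM proteases and the gamma-secretase complex release the intracellular domain, which joins RBPJ and Mastermind proteins in the nucleus and turns on genes such as Hes1, Hey1 and Nrarp. Hes1 and Hey1 encode transcriptional repressors, and Nrarp is an ankyrin repeat protein that limits Notch activity by binding the receptor's intracellular domain. In the intestine, Notch signalling keeps stem and progenitor cells dividing and favours absorptive over secretory fates, and Dll1 and Dll4 are the ligands known to present it to crypt stem cells.

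Library totals ran from 46007050 to 80121299 counts, and a single Notch gene had between 1 and 21147 counts in a library. Levels are given in CPM (counts scaled to a common library total with TMM factors), as mean ± SD over the libraries of a group. Differences were tested with limma-voom in 1 fit over all 12 groups, and a call means a p below 0.01 after Benjamini-Hochberg adjustment over the 14107 genes. For replicate 3 of NaJa-D DMSO day 1, the cell line field says NaJa-G whereas the title says NaJa-D. The title was followed. Its log2 CPM correlated at 0.9946 or more with the other libraries of that group and at 0.9202 or less with the NaJa-G libraries, and results that change without it are named below. Replicate 3 of NaJa-D encorafenib day 1 stood apart in its effect on the number of calls over all genes, which is given beside the comparisons it touched. All 6 epithelial markers (Epcam, Cdh1, Krt8, Krt18, Krt19 and Cldn7) were in the table, with summed levels of 5571 to 9534 CPM in NaJa-D, 4573 to 7629 in NaJa-F and 2600.0 to 5262 in NaJa-G. These sums do not show the single markers, and the paper found E-cadherin protein, encoded by Cdh1, highest in NaJa-D. Of 7 fibroblast markers 4 were in the table, at 1.31 to 5.52 CPM in NaJa-D and NaJa-F libraries and 14.8 to 118 CPM in NaJa-G. The paper describes NaJa-D as epithelial-like, NaJa-F as intermediate and NaJa-G as mesenchymal-like. From genotyping it reports that host cells, for example fibroblasts, were lost from the cultures over the passages. Of 6 mesothelial markers Msln, Upk3b and Lrrn4 were in the table, and Wt1, Krt5 and Calb2 were not. The summed level of Msln, Upk3b and Lrrn4 was higher in every encorafenib group than in the DMSO group of the same line and day. It was, for example, 1236 to 1514 CPM in NaJa-D DMSO day 1 and 2604 to 3521 CPM in NaJa-D encorafenib day 1. This sum does not show the single markers either. Of 6 endothelial and 7 leukocyte markers 1 and 2 were in the table, at no more than 1.36 and 10.2 CPM. In bulk RNA, a change in the number of cells of a kind and a change in RNA per cell cannot be told apart, and the part of these markers in the Notch results was not tested.

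Notch1, Notch2, Jag1, Jag2 and Hes1 exceeded 1 CPM in all 34 libraries. Notch3 did so in 20, Dll1 in 27, Nrarp in 28, Dll4 in 7 and Hey1 in 4 libraries. Every gene of the table exceeded 1 CPM in at least 2 libraries, so Dll4 and Hey1 stood in it through the groups where they were highest. On GRCm38 with the GENCODE M21 annotation, Jag1 lies at chr2:137081456-137116644 on the minus strand, Jag2 at chr12:112907819-112929776 on the minus strand and Nrarp at chr2:25180758-25183339 on the plus strand. Notch1 (chr2:26457903-26516663), Notch3 (chr17:32120820-32166852), Dll1 (chr17:15367354-15376872) and Hey1 (chr3:8663359-8667256) lie on minus strands. Notch2 (chr3:98013527-98150361), Dll4 (chr2:119325784-119335962) and Hes1 (chr16:30064384-30067796) lie on plus strands, and all 10 are protein coding. Nrarp has 1 exon, and 79.4% of its exon bases are covered on the opposite strand by the antisense gene Gm38287. The use of strand in counting was not stated, so reads of the antisense gene cannot be told apart from those of Nrarp. For Dll1, 20.6% of exon bases are overlapped in the same way by A930024N18Rik. For Notch1, Notch3 and Dll4 the opposite-strand overlap with a single gene was 7.5%, 6.03% and 5.56%, and 5.02% of Notch2 was shared with a gene on the same strand.

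Of the 10 genes, 8 had a promoter window in RefSeq (GRCm38.p6), 250 bases before to 50 bases after the start. Hes1 and Hey1 had none there. Jag1 and Jag2 are shown because both fell with encorafenib at day 1 in all 3 lines, and Nrarp because it was the target gene with the lowest fitted fold changes. Capitals mark CACGNG on either strand, a class of site that HES and HEY repressors and E-box factors can bind.
Jag1, chr2:137116471-137116770, minus strand: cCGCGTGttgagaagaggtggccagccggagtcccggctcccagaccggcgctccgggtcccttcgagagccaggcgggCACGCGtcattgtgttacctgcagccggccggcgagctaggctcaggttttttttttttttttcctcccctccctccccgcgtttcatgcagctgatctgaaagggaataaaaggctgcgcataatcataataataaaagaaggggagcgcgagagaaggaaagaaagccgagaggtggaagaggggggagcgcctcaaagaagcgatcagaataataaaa
Jag2, chr12:112929446-112929745, minus strand: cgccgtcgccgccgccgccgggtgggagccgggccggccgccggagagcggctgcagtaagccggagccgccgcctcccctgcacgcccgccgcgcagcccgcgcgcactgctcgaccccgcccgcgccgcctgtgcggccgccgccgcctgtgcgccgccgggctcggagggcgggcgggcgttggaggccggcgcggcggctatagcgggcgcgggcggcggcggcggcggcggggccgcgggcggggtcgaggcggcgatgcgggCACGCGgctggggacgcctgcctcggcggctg
Nrarp, chr2:25180508-25180807, plus strand: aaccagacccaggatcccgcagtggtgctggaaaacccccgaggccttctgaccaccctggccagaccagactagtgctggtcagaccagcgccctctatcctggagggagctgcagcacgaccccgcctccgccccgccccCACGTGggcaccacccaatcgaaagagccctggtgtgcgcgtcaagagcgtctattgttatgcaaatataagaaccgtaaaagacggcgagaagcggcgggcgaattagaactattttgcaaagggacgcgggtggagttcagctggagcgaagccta

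CACGNG was present in a window of 7 of these 8 genes, Notch1 being the exception, and in 27.5% of all 32851 windows. The Notch gene windows were rich in GC, 55.7% to 86% against a median of 52.7% over all windows, and CACGNG was present in 48.5% of all windows with at least 60% GC. The RBPJ core TGGGAA was searched on both strands and was in none of these windows, while 25.6% of all windows held it. The AP-1 site TGANTCA, likewise searched on both strands, was in 1 of the 2 Dll1 windows and in no other Notch gene window, against 7.81% of all windows. CACGNG takes in the E-box CACGTG, and the windows shown held no other searched motif. The letters were chosen after a first scan of these windows. A match is a description of letters, and no binding was measured.

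Per kilobase of exon and among the 10 genes, Notch2 was the main receptor transcript in every group, Jag1 and Jag2 the main ligand transcripts and Hes1 the main target transcript. In RPKM, which is CPM divided by exon length in kilobases, Notch2 stood between 14.9 and 28.6 over the 12 group means. It took 81.5% to 99.0% of the summed level of Notch1, Notch2 and Notch3, a sum that leaves out the receptor Notch4. Notch1 stood between 0.0939 and 0.369 RPKM. Notch3 was at 0.918 to 4.18 RPKM in NaJa-D and at 0.0607 to 0.213 RPKM in the other lines. Jag1 stood between 3.98 and 24.6 RPKM and Jag2 between 6.99 and 43.8 RPKM, and the Delta-like ligands were minor transcripts in all 3 lines. Dll1 stood at 0.192 to 0.94 RPKM, at most 2.96% of the summed ligand level, and Dll4 at 0.0442 to 0.363 RPKM, at most 1.21%. Among the targets, Hes1 stood between 10.5 and 23.4 RPKM, Nrarp between 0.134 and 1.28 RPKM and Hey1 between 0.017 and 0.539 RPKM. Jag2 was the more abundant Jagged ligand in NaJa-D, at 63.7% to 74.3% of the summed ligand level, and in NaJa-G, at 53.4% to 72.1%, whereas Jag1 led in NaJa-F, at 53.6% to 64.7%.

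**Figure D1:**
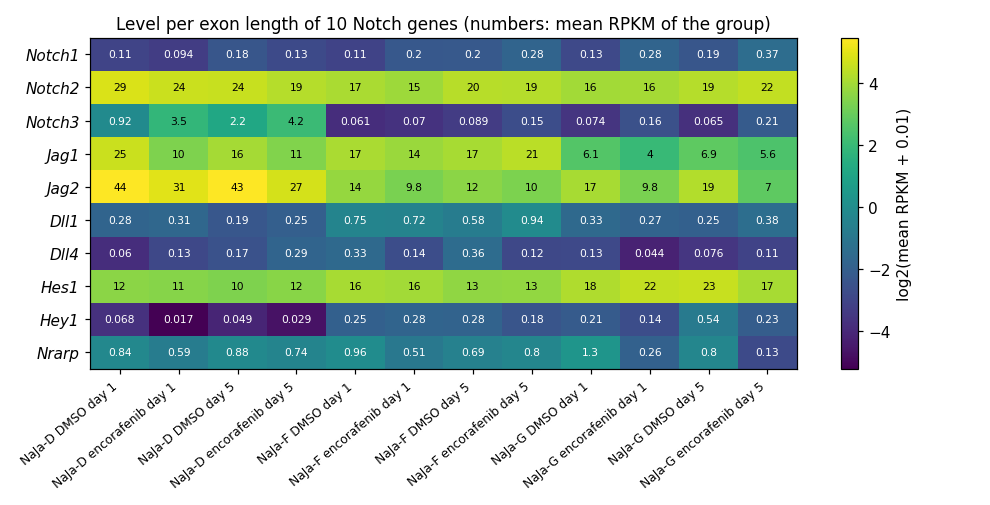
Mean level per exon length (RPKM) of each of the 10 Notch genes (rows) in the 12 groups (columns), with the color on a log2(RPKM + 0.01) scale and the number in each cell giving the mean. Notch2, Jag1, Jag2 and Hes1 stand out in every group, and Notch3 is at 0.918 to 4.18 RPKM in NaJa-D and at no more than 0.213 RPKM elsewhere.

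In DMSO, Notch3 was far higher in NaJa-D than in either other line, the largest line difference among the 10 genes. NaJa-D also had the highest Jag2 level, NaJa-G had the lowest Jag1 level, and NaJa-F the highest Dll1 and Dll4 levels. Hes1 and Hey1 were lower in NaJa-D than in NaJa-F and NaJa-G. Dll4 and Hey1 stood in the table through their highest groups, so their line differences were not independent of the 1 CPM limit. Taking both days in DMSO together, 8 of the 10 genes were called in NaJa-F against NaJa-D, 4 of them higher and 4 lower, where 61.6% of all genes were called. In NaJa-G against NaJa-D 6 were called, 2 higher and 4 lower, compared with 67.4% of all genes. In NaJa-G against NaJa-F 5 were called, 2 higher and 3 lower, compared with 54.4% of all genes. The median absolute log2 difference was 1.02, 0.72 and 0.40 over the 10 genes in these comparisons and 0.32, 0.41 and 0.26 over all genes.

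With encorafenib at day 1, the Jagged ligands Jag1 and Jag2 fell in all 3 lines, Notch3 rose in NaJa-D and NaJa-G, and Notch1 rose in NaJa-F and NaJa-G. Dll4 fell in NaJa-F and NaJa-G, and Nrarp fell in the same lines. At day 1, NaJa-D had 5 of 10 genes called (1 higher, 4 lower), NaJa-F had 5 (1 higher, 4 lower) and NaJa-G had 7 (3 higher, 4 lower). The shares of all genes called were 44.9%, 29.5% and 64.0%. At day 5, NaJa-D had 4 genes called (1 higher, 3 lower), NaJa-F had 3 (2 higher, 1 lower) and NaJa-G had 7 (2 higher, 5 lower), with 33.0%, 18.2% and 53.2% of all genes called. These shares of members lay near the background in NaJa-D and NaJa-G, and 5 of 10 in NaJa-F at day 1 rested on calls for Jag1 and Nrarp that single libraries decided. Dll4 in NaJa-F at both days and Hey1 in NaJa-G at day 5 were tested against DMSO groups through which they stood in the table. The counts that include them were not independent of the 1 CPM limit. The NaJa-F count at day 1 was 3 without DMSO day 1 replicate 3 or without encorafenib day 1 replicates 1 or 2. Its count at day 5 was 1, Dll4, without DMSO day 5 replicate 3. Leaving out encorafenib day 5 replicate 1 left 1 library in that group. The log2 fold changes were then 0.29 for Jag1, 0.71 for Dll1, -1.43 for Dll4 and 0.69 for Notch1. These 6 comparisons share no libraries.

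**Figure D2:**
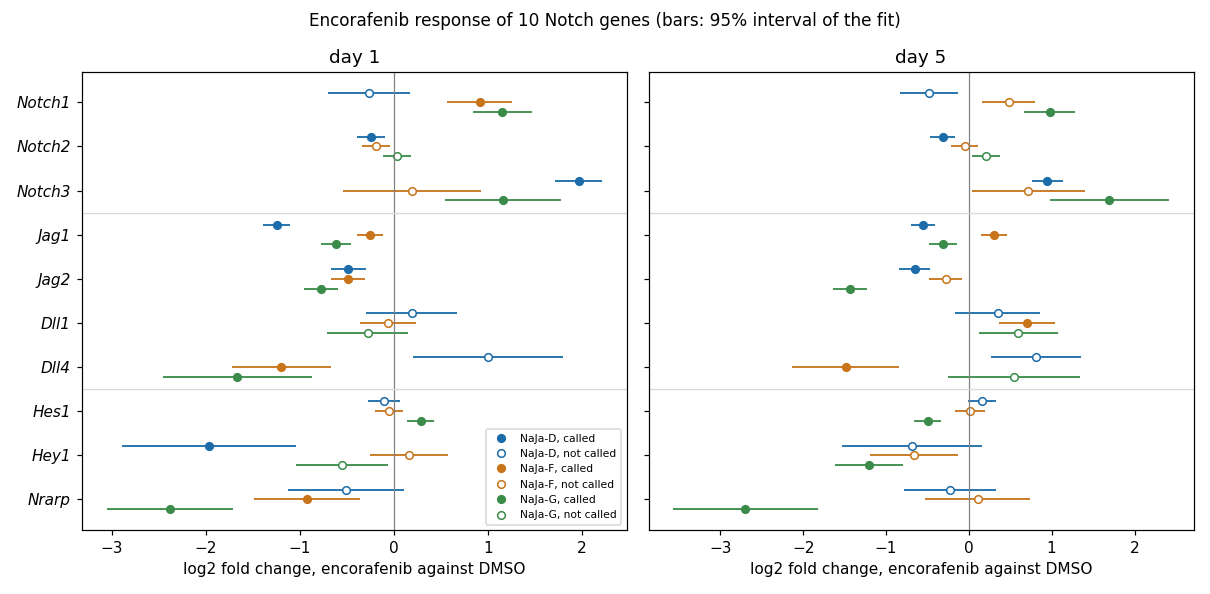
Log2 fold change of the 10 Notch genes with encorafenib against DMSO of the same line and day, with day 1 on the left and day 5 on the right. Points are the fitted values, filled where the adjusted p was below 0.01, and bars are 95% intervals of the limma fit. Jag1 and Jag2 are left of 0 in all lines at day 1, Notch1 is right of 0 in NaJa-F and NaJa-G, and Nrarp in NaJa-G lies near -2.38 and -2.70.

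Notch3, a receptor best known from smooth muscle and pericytes, showed both the largest line difference and the largest rise with the inhibitor in NaJa-D. Its CPM in the NaJa-D DMSO libraries at day 1 were 7.22, 9.22 and 5.85, and with encorafenib they were 27.7, 27.3 and 31.1. The groups did not overlap and the log2 fold change was 1.97 (SE 0.12, adjusted p = 1.23e-13). By day 5 the DMSO libraries had risen to 19.9, 18.1 and 15 CPM, a log2 change over time of 1.26 (SE 0.13, adjusted p = 7.3e-09). The encorafenib libraries at day 5 held 35.8, 34.4 and 31.2 CPM, a log2 fold change of 0.94 (SE 0.09, adjusted p = 1.53e-09) against DMSO of that day. The response was smaller at day 5 than at day 1 by 1.02 on the log2 scale (adjusted p = 2.61e-05), while the encorafenib means of the 2 days were 28.7 ± 2.06 and 33.8 ± 2.34 CPM. With the limma-trend fit the adjusted p of this difference was 0.0102.

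In NaJa-F the Notch3 level was 0.491 ± 0.0723 CPM at day 1 and 0.722 ± 0.146 CPM at day 5 in DMSO, and in NaJa-G it was 0.602 ± 0.13 and 0.526 ± 0.177 CPM. The log2 difference from NaJa-D was -4.25 (SE 0.18, adjusted p = 6.92e-18) for NaJa-F and -4.34 (SE 0.21, adjusted p = 2.38e-17) for NaJa-G, with no overlap between libraries. NaJa-F and NaJa-G did not pass the test against each other (-0.10, 95% interval -0.63 to 0.44). In NaJa-G encorafenib raised Notch3 from 0.471, 0.603 and 0.732 to 1.23, 1.59 and 1.09 CPM at day 1 and from 0.401 and 0.651 to 1.49, 2.01 and 1.65 CPM at day 5. The log2 fold changes were 1.16 (SE 0.30, adjusted p = 0.00105) and 1.70 (SE 0.35, adjusted p = 0.000128), and the groups did not overlap at either day. The day 1 call was lost without NaJa-G DMSO day 1 replicate 1, at 0.99 (adjusted p = 0.0102), and without NaJa-G encorafenib day 1 replicate 2, at 0.99 (adjusted p = 0.0108). Beside this, the 4 fibroblast markers summed to 54.6 to 74.9 CPM in DMSO and 89.3 to 105 CPM in encorafenib at day 1 in NaJa-G, and to 14.8 to 17.4 and 102 to 118 CPM at day 5. NaJa-G is the line that the paper calls mesenchymal-like, and the part of these markers in the Notch3 result was not tested. In NaJa-F the log2 fold changes were 0.19 (95% interval -0.54 to 0.92) at day 1 and 0.72 (0.04 to 1.4) at day 5, neither called. The day 5 libraries of NaJa-F did not overlap, at 0.684, 0.599 and 0.883 CPM in DMSO and 1.16 and 1.2 CPM in encorafenib.

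Notch1, a receptor known from T-cell leukemia and a main one of intestinal crypts, rose with encorafenib in NaJa-F and NaJa-G, and no rise was called in NaJa-D. In NaJa-G it went from 1.77, 1.61 and 2.06 CPM in DMSO to 4.2, 4.11 and 3.58 CPM at day 1 and from 2.68 and 2.66 to 5.19, 5.24 and 5.32 CPM at day 5. These were log2 fold changes of 1.15 (SE 0.15, adjusted p = 1.15e-07) and 0.97 (SE 0.15, adjusted p = 2.93e-06), with every treated library above every control library. In NaJa-F it went from 1.73, 1.71 and 1.18 to 2.68, 2.84 and 2.97 CPM at day 1, a log2 fold change of 0.91 (SE 0.17, adjusted p = 7.46e-05), again without overlap. On day 5 NaJa-F held 3.33, 2.88 and 2.47 CPM in DMSO and 3.41 and 4.69 CPM in encorafenib, which did not pass the test (0.48, adjusted p = 0.021). Without NaJa-F encorafenib day 5 replicate 1 that value was 0.69 (adjusted p = 0.00352), and without replicate 2 of that group it was 0.23 (adjusted p = 0.414). In NaJa-D the treated libraries were at 1.38, 1.22 and 1.41 CPM against 1.4, 1.81 and 1.65 CPM at day 1, and at 2.33, 1.76 and 1.62 CPM against 3.14, 2.61 and 2.14 CPM at day 5. The log2 fold changes there were -0.27 (adjusted p = 0.291) and -0.48 (adjusted p = 0.0239), and the groups overlapped. Without NaJa-D DMSO day 5 replicate 3 the latter was -0.63 (adjusted p = 0.00578).

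The Notch1 response differed between the lines when the difference itself was tested. The NaJa-G response exceeded the NaJa-D response by 1.42 (SE 0.26, adjusted p = 6.26e-05) on the log2 scale at day 1 and by 1.45 (SE 0.23, adjusted p = 1.25e-05) at day 5. NaJa-F exceeded NaJa-D by 1.18 (SE 0.27, adjusted p = 0.00338) and 0.96 (SE 0.23, adjusted p = 0.0043). For NaJa-F, the day 1 difference from NaJa-D was lost without NaJa-D DMSO day 1 replicate 2, NaJa-D encorafenib day 1 replicate 2 or NaJa-F DMSO day 1 replicate 3 (adjusted p = 0.0124 to 0.0167). That at day 5 was lost without NaJa-D DMSO day 5 replicate 1, NaJa-D encorafenib day 5 replicates 2 or 3, NaJa-F DMSO day 5 replicate 3 or NaJa-F encorafenib day 5 replicate 2 (adjusted p = 0.015 to 0.0453). When only the libraries of the groups compared entered the fit, termed here the compared groups alone, these differences of NaJa-F from NaJa-D had adjusted p of 0.0101 and 0.0203. In DMSO, Notch1 was called higher at day 5 than at day 1 in each line, and in NaJa-F also in all 6 fits with a library left out and under all 8 other settings, with log2 changes of 0.70 (SE 0.19, adjusted p = 0.00467) in NaJa-D, 0.93 (SE 0.17, adjusted p = 0.000163) in NaJa-F and 0.58 (SE 0.18, adjusted p = 0.00942) in NaJa-G. The NaJa-D and NaJa-G calls were lost without most single libraries. For NaJa-D these were DMSO day 1 replicates 1 and 3 and DMSO day 5 replicates 1 and 2 (adjusted p = 0.0108 to 0.0403), and for NaJa-G they were DMSO day 1 replicates 1 and 2 and both DMSO day 5 libraries (adjusted p = 0.0263 to 0.0446). The NaJa-G call was also lost with edgeR, DESeq2, limma-trend, RLE scaling and the compared groups alone, at 0.55 to 0.59 (adjusted p = 0.0101 to 0.0529). The lines did not differ detectably in Notch1 in DMSO, with 95% intervals of the log2 difference of -0.24 to 0.28 for NaJa-F and -0.18 to 0.36 for NaJa-G against NaJa-D.

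Notch2, the most abundant of the 3 receptors, varied by 1.91 fold between its highest and lowest group means. In DMSO its libraries were at 296, 312 and 315 CPM in NaJa-D, 183, 186 and 179 CPM in NaJa-F and 165, 172 and 167 CPM in NaJa-G at day 1. At day 5 they were at 291, 264 and 214 CPM in NaJa-D, 210.3, 221 and 211 CPM in NaJa-F and 221 and 199 CPM in NaJa-G. Over both days the level was lower in NaJa-F than in NaJa-D by a log2 difference of -0.50 (SE 0.05, adjusted p = 1.2e-09) and in NaJa-G by a log2 difference of -0.57 (SE 0.06, adjusted p = 1.96e-10), with overlap between libraries in both comparisons. For NaJa-F this was -0.75 at day 1 and -0.25 at day 5, and for NaJa-G -0.87 and -0.28, all called. Encorafenib lowered Notch2 in NaJa-D to 257, 253 and 270.3 CPM at day 1 and to 218, 208 and 188 CPM at day 5, log2 fold changes of -0.24 (SE 0.07, adjusted p = 0.00643) and -0.32 (SE 0.07, adjusted p = 0.000807). The lowest DMSO library of day 5, replicate 3, lay within the treated range. The day 1 call was lost without NaJa-D DMSO day 1 replicates 2 or 3 or NaJa-D encorafenib day 1 replicates 1 or 2 (adjusted p = 0.015 to 0.0285) and with scaling by library size alone (-0.17, adjusted p = 0.0494). The day 5 call was lost without NaJa-D DMSO day 5 replicate 1 or NaJa-D encorafenib day 5 replicate 3 (adjusted p = 0.0121 to 0.0158). Both were lost with the compared groups alone (adjusted p = 0.0192 and 0.0135). In NaJa-F and NaJa-G no Notch2 response was called, with log2 fold changes of -0.18 and 0.03 at day 1 and -0.05 and 0.21 at day 5. The day 5 response of NaJa-G exceeded that of NaJa-D by 0.52 (SE 0.11, adjusted p = 0.000521).

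Over time in DMSO, Notch2 fell in NaJa-D by 0.27 on the log2 scale (adjusted p = 0.00376) and rose in NaJa-G by 0.32 (SE 0.08, adjusted p = 0.00217). The fall in NaJa-D was -0.10 with scaling by library size alone (adjusted p = 0.274), a scaling that shifted the median of all genes in this comparison by 0.177. It was also lost without NaJa-D DMSO day 1 replicates 2 or 3 or NaJa-D DMSO day 5 replicate 3 (adjusted p = 0.0137 to 0.0617), and the last of these moved it to -0.15 (adjusted p = 0.0617). The rise in NaJa-G was lost without NaJa-G DMSO day 5 replicate 1, at 0.24 (adjusted p = 0.0699). In NaJa-F the change was 0.23 (SE 0.07, adjusted p = 0.02), not called. With the compared groups alone the NaJa-D and NaJa-G calls were lost (adjusted p = 0.0228 and 0.0231) and the NaJa-F change was called, at 0.26 (adjusted p = 0.000616), as it was with scaling by library size alone, at 0.31 (adjusted p = 0.00159).

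**Figure D3:**
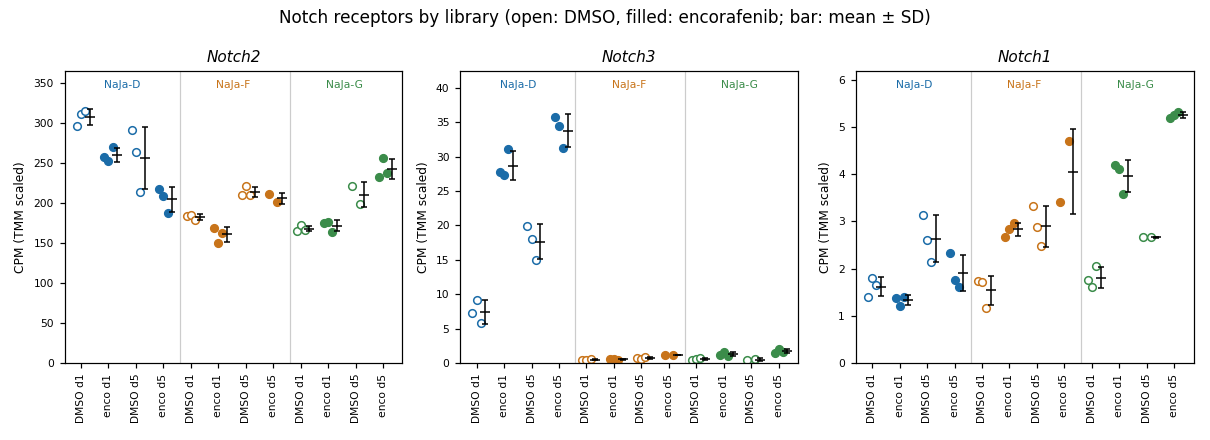
CPM of Notch2, Notch3 and Notch1 in every library, by group, with open points for DMSO, filled points for encorafenib and bars for the mean ± SD. Notch3 reaches 27.3 to 35.8 CPM in the encorafenib libraries of NaJa-D and stays at or below 2.01 CPM in NaJa-F and NaJa-G, and Notch1 is highest in NaJa-G encorafenib day 5, at 5.19 to 5.32 CPM.

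Jag1, a Jagged ligand active in vessel, bile duct and tumor epithelium, fell with encorafenib at day 1 in all 3 lines, by the largest amount in NaJa-D. There the DMSO libraries held 133, 136 and 160.3 CPM and the encorafenib libraries 54.8, 60.5 and 65.9 CPM, a log2 fold change of -1.25 (SE 0.07, adjusted p = 1.67e-14). In NaJa-G the level went from 36.6, 34.9 and 34.7 to 23.5, 22 and 24 CPM, a log2 fold change of -0.62 (SE 0.08, adjusted p = 4.45e-08). In NaJa-F it went from 97.4, 96.4 and 104 to 81.5, 80.04 and 87.7 CPM, a log2 fold change of -0.25 (SE 0.07, adjusted p = 0.00372). In each line every treated library was below every control library. The NaJa-F call was lost without NaJa-F DMSO day 1 replicate 3, or NaJa-F encorafenib day 1 replicates 1 or 2 (adjusted p = 0.0194 to 0.029). Tested as differences, the day 1 response of NaJa-D was the stronger one, by 0.99 (SE 0.10, adjusted p = 7.12e-08) against NaJa-F and against NaJa-G by 0.63 (SE 0.10, adjusted p = 1.48e-05). It was stronger in NaJa-G than in NaJa-F, with a difference of -0.36 (SE 0.10, adjusted p = 0.00531), a call lost without NaJa-F DMSO day 1 replicates 1 or 2, NaJa-F encorafenib day 1 replicate 3, NaJa-G DMSO day 1 replicate 1 or NaJa-G encorafenib day 1 replicate 2 (adjusted p = 0.0128 to 0.0227).

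At day 5 the Jag1 responses of the lines pointed in different directions. In NaJa-D the control libraries had come down to 103, 93.3 and 84.2 CPM, a log2 change over time of -0.61 (SE 0.07, adjusted p = 5.94e-08), and the treated libraries were at 65.2, 63.6 and 61.6 CPM. The log2 fold change was -0.55 (SE 0.07, adjusted p = 1.62e-07), weaker than at day 1 by 0.69 (SE 0.10, adjusted p = 1.4e-05). In NaJa-G it was -0.31 (SE 0.08, adjusted p = 0.00173), from 41.6 and 39.2 to 30.7, 34.3 and 32.7 CPM, a call lost without NaJa-G DMSO day 5 replicate 1 or NaJa-G encorafenib day 5 replicate 1 (adjusted p = 0.0109 to 0.0273). In NaJa-F the treated libraries, at 119.6 and 120.1 CPM, were above the controls, at 96.5, 96.9 and 98.4 CPM. That log2 fold change was 0.30 (SE 0.08, adjusted p = 0.00359), and the call was lost when any 1 of the 5 libraries was left out, where the adjusted p was 0.0127 to 0.041. The change of response from day 1 to day 5 in NaJa-F was 0.56 (SE 0.10, adjusted p = 0.000359). The difference between NaJa-F and NaJa-D at day 5 was 0.86 (SE 0.10, adjusted p = 9.58e-07), and that between NaJa-G and NaJa-F was -0.61 (SE 0.11, adjusted p = 8.51e-05).

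In DMSO, Jag1 was lower in NaJa-G than in both other lines, by a log2 difference of -1.61 (SE 0.05, adjusted p = 4.59e-21) against NaJa-D and -1.38 (SE 0.05, adjusted p = 3e-19) against NaJa-F, without overlap between libraries. The difference of NaJa-F from NaJa-D was -0.23 (SE 0.05, adjusted p = 0.000117) over both days, and it depended on the day. At day 5 alone it was 0.06 (adjusted p = 0.445), where Jag1 in NaJa-D stood at 93.5 ± 9.45 CPM against 97.3 ± 0.995 CPM in NaJa-F. With scaling by library size alone it was -0.11 (adjusted p = 0.0202).

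Jag2, the other Jagged ligand, fell with encorafenib in every line at day 1 and further in NaJa-G by day 5. At day 1 its CPM went from 271, 334 and 309.6 to 215, 215 and 223 in NaJa-D. In NaJa-F it went from 98.4, 92.9 and 93.7 to 70.1, 67.6 and 66, and in NaJa-G from 119, 117 and 114 to 66.9, 70.1 and 67.5. The groups did not overlap in any line, and the log2 fold changes were -0.48 (SE 0.09, adjusted p = 5.37e-05), -0.48 (SE 0.09, adjusted p = 5.85e-05) and -0.77 (SE 0.09, adjusted p = 7.86e-09). The day 1 responses of the lines were not called different, with 95% intervals of -0.26 to 0.26 for NaJa-F against NaJa-D, -0.55 to -0.03 for NaJa-G against NaJa-D and -0.55 to -0.03 for NaJa-G against NaJa-F. Some alternatives did call them. NaJa-G minus NaJa-D was -0.43 (adjusted p = 0.00568) with scaling by library size alone and -0.36 (adjusted p = 0.00945) with the compared groups alone, and NaJa-G minus NaJa-F was -0.28 (adjusted p = 0.000857) with the compared groups alone. By day 5 the NaJa-G controls held 121 and 142 CPM and the treated libraries 46.3, 52.9 and 46.8 CPM, a log2 fold change of -1.43 (SE 0.10, adjusted p = 5.91e-13). This exceeded the day 1 response of that line by a log2 difference of -0.66 (SE 0.13, adjusted p = 0.000222). In NaJa-D the day 5 libraries were at 346, 296 and 266 CPM in DMSO and 188, 188 and 197 CPM in encorafenib, a log2 fold change of -0.65 (SE 0.09, adjusted p = 9.5e-07). In NaJa-F the 2 treated libraries lay apart, at 59.6 and 82.8 CPM against 85.9, 86.8 and 83.7 CPM in DMSO, and the log2 fold change of -0.28 (SE 0.10, adjusted p = 0.0333) was not called. Without NaJa-F encorafenib day 5 replicate 2 it was -0.54 (adjusted p = 0.000334), and without replicate 1 of that group it was -0.06 (adjusted p = 0.776).

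The day 5 response of Jag2 in NaJa-G was stronger than that in NaJa-D by a log2 difference of -0.78 (SE 0.13, adjusted p = 4.75e-05) and than that in NaJa-F by a log2 difference of -1.15 (SE 0.14, adjusted p = 1.85e-07). In DMSO the level of Jag2 was lower in NaJa-F than in NaJa-D by a log2 difference of -1.75 (SE 0.06, adjusted p = 1.05e-19) and lower in NaJa-G by a log2 difference of -1.29 (SE 0.07, adjusted p = 2.28e-16), and NaJa-G was above NaJa-F by 0.46 (SE 0.07, adjusted p = 7.19e-07), or by 0.30 at day 1 alone. None of these pairs of lines overlapped. Jag2 did not change over time in DMSO past the threshold in any line, with 95% intervals of -0.20 to 0.17 in NaJa-D, -0.33 to 0.03 in NaJa-F and -0.04 to 0.37 in NaJa-G. Summed over the 4 ligands, the level per length in NaJa-G was 23.3 ± 0.595 RPKM in DMSO and 14.1 ± 0.171 RPKM in encorafenib at day 1, and 26.1 ± 1.81 and 13.1 ± 0.765 RPKM at day 5. In NaJa-D the sums were 68.7 ± 5.80 and 42.0 ± 1.56 RPKM at day 1 and 59.8 ± 7.41 and 38.9 ± 0.468 RPKM at day 5. In NaJa-F they were 31.7 ± 0.607 and 24.9 ± 0.583 RPKM at day 1 and 29.9 ± 0.233 and 31.9 ± 2.45 RPKM at day 5.

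Dll4, the Delta-like ligand of endothelium and crypts, was a low transcript that fell with encorafenib in NaJa-F at both days and in NaJa-G at day 1, and no rise was called in any line. It exceeded 1 CPM, before TMM scaling, in 7 of 34 libraries, all of NaJa-F in DMSO or NaJa-D encorafenib day 5. Dll4 stood in the table through these groups, so tests that use them were not independent of that limit. In NaJa-F the DMSO libraries held 0.995, 1.51 and 1.33 CPM and the encorafenib libraries 0.495, 0.618 and 0.548 CPM at day 1, from 58 to 102 against 32 to 42 counts. The log2 fold change was -1.19 (SE 0.25, adjusted p = 0.000396) at day 1 and -1.49 (SE 0.31, adjusted p = 0.000554) at day 5, where the libraries held 1.0, 1.6 and 1.59 CPM in DMSO and 0.459 and 0.503 CPM in encorafenib. The day 5 call was lost without NaJa-F encorafenib day 5 replicate 1, at -1.43 (adjusted p = 0.0127), and with the compared groups alone (adjusted p = 0.0105). In NaJa-G the level was 0.484, 0.589 and 0.399 CPM in DMSO and 0.0641, 0.225 and 0.223 CPM in encorafenib at day 1, the latter from 4, 17 and 11 counts. The log2 fold change was -1.66 (SE 0.39, adjusted p = 0.000359) and the groups did not overlap. Without NaJa-G encorafenib day 1 replicate 1 it was -1.10 (adjusted p = 0.00979). At day 5 no Dll4 response was called in NaJa-G (0.54, 95% interval -0.25 to 1.34), and the responses of the 2 days differed by 2.20 (SE 0.55, adjusted p = 0.00175). That call was lost without NaJa-G DMSO day 5 replicate 3, at 1.90 (adjusted p = 0.0171), and without NaJa-G encorafenib day 1 replicate 1, at 1.64 (adjusted p = 0.0113). It was lost too with the compared groups alone (adjusted p = 0.0126).

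In NaJa-D the Dll4 libraries of both treatments did not overlap at either day, but no call was made. They were at 0.293, 0.188 and 0.218 CPM in DMSO and 0.647, 0.445 and 0.357 CPM in encorafenib at day 1, and at 0.524, 0.583 and 0.802 and 0.96, 1.19 and 1.15 CPM at day 5. The log2 fold changes were 1.00 (adjusted p = 0.0295) and 0.81 (adjusted p = 0.0149), and limma-trend gave 0.90 at day 1 with an adjusted p of 0.00814. Minus the NaJa-D response, the NaJa-F response was -2.20 (SE 0.46, adjusted p = 0.00158) at day 1 and -2.30 (SE 0.41, adjusted p = 0.000217) at day 5, and the NaJa-G response was -2.66 (SE 0.55, adjusted p = 0.000224) at day 1. The first of these was lost without NaJa-D encorafenib day 1 replicate 1, at -1.95 (adjusted p = 0.0108). At day 5 NaJa-G exceeded NaJa-F by 2.03 (SE 0.50, adjusted p = 0.00204), and by 1.73 (adjusted p = 0.0225) without NaJa-G DMSO day 5 replicate 3. In DMSO, the Dll4 level of NaJa-F exceeded that of NaJa-D by 1.76 (SE 0.22, adjusted p = 3.64e-08), or by 1.11 at day 5 alone, and NaJa-G minus NaJa-F was -1.80 (SE 0.22, adjusted p = 3.09e-08). Both differences use the NaJa-F DMSO groups through which Dll4 stood in the table. Over time in NaJa-D Dll4 rose by 1.39 (SE 0.38, adjusted p = 0.00428), which was lost without NaJa-D DMSO day 1 replicates 2 or 3 or NaJa-D DMSO day 5 replicate 3 (adjusted p = 0.0191 to 0.0253).

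Dll1, the other Delta-like ligand, was highest in NaJa-F. In DMSO its libraries held 3.16, 3.35 and 2.99 CPM at day 1 in NaJa-F, 0.775, 1.52 and 1.24 CPM in NaJa-D and 1.58, 1.62 and 0.948 CPM in NaJa-G. Over both days NaJa-F was above NaJa-D by 1.53 (SE 0.15, adjusted p = 5.11e-10), and NaJa-G was below NaJa-F by a log2 difference of -1.2 (SE 0.14, adjusted p = 2.13e-08). Neither pair overlapped. A rise with encorafenib was called in NaJa-F at day 5, from 2.56, 2.85 and 1.98 to 3.91 and 4.03 CPM, a log2 fold change of 0.70 (SE 0.16, adjusted p = 0.00173). It was lost with edgeR (0.69, adjusted p = 0.0127), limma-trend (0.69, adjusted p = 0.0238) and the compared groups alone (0.70, adjusted p = 0.0137), and without NaJa-F DMSO day 5 replicate 3 or either encorafenib library (adjusted p = 0.0117 to 0.0232). The other 5 log2 fold changes of Dll1 ranged from -0.28 to 0.60 and none was called.

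**Figure D4:**
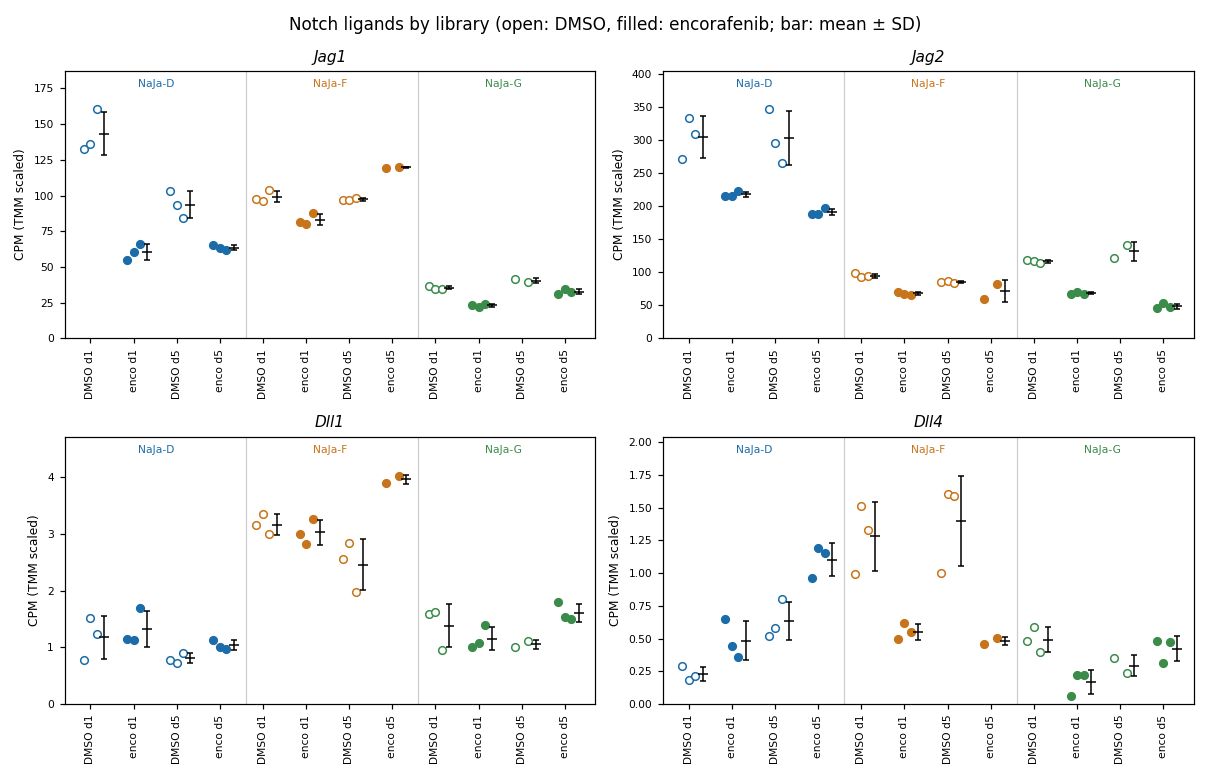
CPM of Jag1, Jag2, Dll1 and Dll4 in every library, by group, with open points for DMSO, filled points for encorafenib and bars for the mean ± SD. At day 1 all treated libraries lie below all control libraries of the same line for Jag1 and Jag2, and Jag1 in NaJa-F at day 5 lies above its controls.

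Nrarp, the feedback inhibitor among the targets, fell strongly with encorafenib in NaJa-G at both days. The libraries held 4.5, 2.52 and 2.89 CPM in DMSO and 0.481, 0.542 and 0.971 CPM in encorafenib at day 1, and 2.09 and 2.06 against 0.271, 0.546 and 0.217 CPM at day 5. Every treated library was below every control library, and reads of the antisense gene Gm38287 may be part of these counts. The log2 fold changes were -2.38 (SE 0.33, adjusted p = 2.48e-07) and -2.70 (SE 0.42, adjusted p = 3.33e-06), on treated counts of 30, 41 and 48 at day 1 and 18, 35 and 16 at day 5. The NaJa-F level went from 2.45, 2.69 and 2.31 to 1.49, 1.49 and 1.01 CPM at day 1, a log2 fold change of -0.92 (SE 0.27, adjusted p = 0.00784). That call was lost when any 1 of the 6 libraries was left out (adjusted p = 0.0131 to 0.0585), with edgeR (-0.90, adjusted p = 0.0117) and with limma-trend (-0.90, adjusted p = 0.0153). At day 5 the 2 treated libraries of NaJa-F were at 1.22 and 2.91 CPM, on both sides of the controls at 1.99, 1.62 and 1.7 CPM. In NaJa-D the log2 fold changes were -0.51 (95% interval -1.12 to 0.11) and -0.23 (-0.78 to 0.32), neither called.

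The fall of Nrarp in NaJa-G was larger than the response in NaJa-D by a log2 difference of -1.87 (SE 0.45, adjusted p = 0.00106) at day 1 and -2.47 (SE 0.50, adjusted p = 0.000337) at day 5. Against NaJa-F the differences were -1.46 (SE 0.43, adjusted p = 0.00656) and -2.80 (SE 0.53, adjusted p = 0.00011). The day 1 difference from NaJa-F was lost without NaJa-F DMSO day 1 replicates 1 or 3, NaJa-F encorafenib day 1 replicates 1 or 2, NaJa-G DMSO day 1 replicate 1, or NaJa-G encorafenib day 1 replicates 1 or 2 (adjusted p = 0.011 to 0.0285), and with the compared groups alone (adjusted p = 0.0124). Nrarp did not differ between the lines in DMSO past the threshold, with log2 differences of -0.07, 0.23 and 0.31 and 95% intervals of -0.47 to 0.32, -0.16 to 0.63 and -0.07 to 0.69.

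Hes1, the classical Notch target of progenitor cells, stayed within 20.1 to 53.5 CPM over all libraries. In NaJa-G its response to encorafenib changed sign between the days. At day 1 the libraries held 40.9, 35.5 and 35.1 CPM in DMSO and 47.8, 43.6 and 44.5 CPM in encorafenib, a log2 fold change of 0.29 (SE 0.07, adjusted p = 0.000732), a call lost with the compared groups alone, at 0.23 (adjusted p = 0.0233). At day 5 they held 41.7 and 53.5 CPM in DMSO and 33.1, 34.7 and 33.2 CPM in encorafenib, a log2 fold change of -0.49 (SE 0.08, adjusted p = 4.37e-06), which was -0.32 (adjusted p = 0.00245) without NaJa-G DMSO day 5 replicate 3. The groups did not overlap at either day, and the 2 responses differed by a log2 value of -0.78 (SE 0.11, adjusted p = 9.39e-07). The NaJa-G control had risen over time by 0.35 (SE 0.08, adjusted p = 0.000579), which was 0.17 (adjusted p = 0.102) without NaJa-G DMSO day 5 replicate 3, the library with the highest Hes1 level of all 34, and was not called with the compared groups alone (adjusted p = 0.0678). In NaJa-D and NaJa-F none of the 4 responses was called, with log2 fold changes of -0.11, 0.16, -0.05 and 0.02 and a widest 95% interval of -0.16 to 0.19, in NaJa-F at day 5. In NaJa-F Hes1 fell over time in DMSO, from 32.7, 34.8 and 32.8 to 27.3, 25.9 and 25.4 CPM, a log2 change of -0.35 (SE 0.08, adjusted p = 0.000915).

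The Hes1 response in NaJa-G exceeded that in NaJa-D by 0.39 (SE 0.11, adjusted p = 0.00416) at day 1 and lay below it by a log2 difference of -0.65 (SE 0.11, adjusted p = 4.99e-05) at day 5. Against NaJa-F the differences were 0.34 (SE 0.10, adjusted p = 0.00757) and -0.51 (SE 0.12, adjusted p = 0.00111). At day 1 the difference from NaJa-F was lost without 9 of 12 single libraries (adjusted p = 0.0107 to 0.0264), which were the 3 NaJa-F DMSO day 1 libraries, NaJa-F encorafenib day 1 replicates 2 and 3, NaJa-G DMSO day 1 replicates 2 and 3, and NaJa-G encorafenib day 1 replicates 1 and 3. That from NaJa-D was lost without NaJa-D DMSO day 1 replicate 2, NaJa-D encorafenib day 1 replicate 1, NaJa-G DMSO day 1 replicates 2 or 3 or NaJa-G encorafenib day 1 replicate 1 (adjusted p = 0.0132 to 0.0185). The day 5 difference from NaJa-F was lost without NaJa-F encorafenib day 5 replicate 2, at -0.42 (adjusted p = 0.0202), and without NaJa-G DMSO day 5 replicate 3, at -0.33 (adjusted p = 0.0236). Of the alternative settings, the compared groups alone lost this call (adjusted p = 0.0129) and the day 1 difference from NaJa-D (adjusted p = 0.0264). Scaling by library size alone lost the latter too, at 0.26 (adjusted p = 0.0332), and the day 1 difference from NaJa-F was lost with RLE scaling (adjusted p = 0.0102) and with the replicate block (adjusted p = 0.011). In DMSO, the Hes1 level of NaJa-D was exceeded in NaJa-F by 0.36 (SE 0.06, adjusted p = 2.3e-06) and in NaJa-G by 0.86 (SE 0.06, adjusted p = 8.1e-14). NaJa-G exceeded NaJa-F by 0.50 (SE 0.05, adjusted p = 3.91e-09) over both days, by 0.15 (adjusted p = 0.0843) at day 1 alone and by 0.85 at day 5 alone.

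Hey1, a target repressor known from vessel and heart development, was near the limit of detection in NaJa-D. Its DMSO libraries there held 8, 15 and 6 counts at day 1, or 0.168, 0.352 and 0.146 CPM, and its encorafenib libraries 3, 6 and 1 counts, or 0.0452, 0.103 and 0.0188 CPM. The groups did not overlap and the log2 fold change was -1.96 (SE 0.45, adjusted p = 0.000581), a call lost with the compared groups alone, at -1.99 (adjusted p = 0.0247). As a ratio of summed counts, 10 against 29, this was 0.255 with an exact 95% interval of 0.111 to 0.538, which covers counting error only. The day 5 ratio was 0.597 (0.303 to 1.15), on 17 against 25 counts, and the log2 fold change of -0.69 was not called. Levels were higher in the other lines in DMSO, at 0.875, 0.831 and 0.784 CPM in NaJa-F and 0.759, 0.683 and 0.649 CPM in NaJa-G at day 1, and the log2 difference from NaJa-D was 2.24 (SE 0.22, adjusted p = 3.55e-10) and 2.60 (SE 0.22, adjusted p = 1.07e-11). The value of NaJa-G was 1.71 at day 1 alone. No library of NaJa-D reached those of the other lines. Hey1 exceeded 1 CPM, before TMM scaling, in 4 of 34 libraries, all of NaJa-F or NaJa-G. It stood in the table through groups of those lines, so the difference from NaJa-D was not independent of that limit.

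In NaJa-G, Hey1 rose over time in DMSO to 1.87 and 1.65 CPM, a log2 change of 1.32 (SE 0.20, adjusted p = 6.14e-06), whereas the encorafenib libraries at day 5 held 0.633, 0.796 and 0.841 CPM. The log2 fold change with encorafenib at day 5 was -1.21 (SE 0.20, adjusted p = 7.44e-06). This value and the rise over time both use NaJa-G DMSO day 5, a group through which Hey1 stood in the table. The treated mean at day 5 was 0.757 ± 0.109 CPM and the DMSO mean at day 1 was 0.697 ± 0.0564 CPM. At day 1 the NaJa-G treated libraries, at 0.465, 0.542 and 0.405 CPM, lay below the controls but the log2 fold change of -0.55 was not called (adjusted p = 0.0424). In NaJa-F the values were 0.16 and -0.66, not called. The day 1 response of NaJa-F exceeded that of NaJa-D by 2.12 (SE 0.50, adjusted p = 0.00374), a call lost without NaJa-D DMSO day 1 replicate 2, at 1.76 (adjusted p = 0.0197), or NaJa-D encorafenib day 1 replicate 1, at 2.08 (adjusted p = 0.0197). With the compared groups alone it was lost too (adjusted p = 0.0291).

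**Figure D5:**
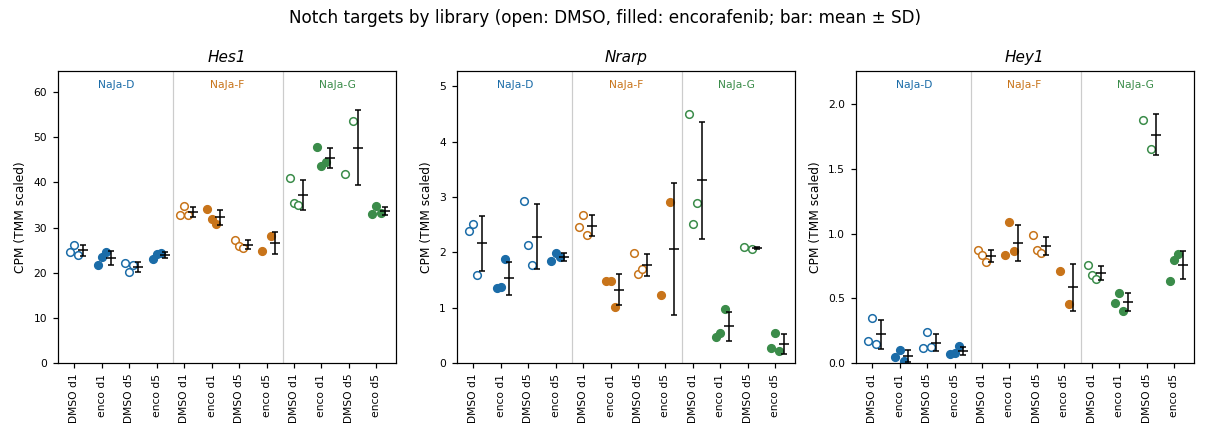
CPM of Hes1, Nrarp and Hey1 in every library, by group, with open points for DMSO, filled points for encorafenib and bars for the mean ± SD. Nrarp lies at 0.217 to 0.971 CPM in the encorafenib libraries of NaJa-G against 2.06 to 4.5 CPM in its controls, and Hey1 is highest in NaJa-G DMSO day 5.

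Over time in culture Notch1 rose and Hes1 fell in NaJa-F, Notch3 rose and Jag1 fell in NaJa-D, and Hey1 rose in NaJa-G. The Hey1 rise uses NaJa-G DMSO day 5, a group through which Hey1 stood in the table. It was thus not independent of the 1 CPM limit, nor was the NaJa-G count below that includes it. Notch1 and Notch2 in NaJa-D and NaJa-G, Dll4 in NaJa-D and Hes1 in NaJa-G were also called, but these calls were lost under the alternatives given above. From day 1 to day 5 in DMSO, NaJa-D had 5 of 10 genes called (3 higher, 2 lower), NaJa-F had 2 (1 higher, 1 lower) and NaJa-G had 4 (4 higher). The shares of all genes called were 29.0%, 16.7% and 34.1%. Notch3 and Jag1 moved over time in NaJa-D in the same direction as with encorafenib at day 1, by 1.26 against 1.97 and by a log2 difference of -0.61 against -1.25 on the log2 scale. Both comparisons rest on the same DMSO day 1 libraries. With DMSO day 1 replicate 3 left out the NaJa-D count was 2, and it was 3 with either DMSO day 1 replicate 2 or DMSO day 5 replicate 3 left out. The NaJa-G count was 2 without either of its DMSO day 5 libraries. The responses at day 5 and day 1 were called different for 2 of 10 genes in NaJa-D, Notch3 and Jag1, for Jag1 in NaJa-F and for 3 genes in NaJa-G, Jag2, Dll4 and Hes1. Of all genes, 7.29%, 5.88% and 31.7% were called in these comparisons. Nrarp in NaJa-F would join them without encorafenib day 5 replicate 1, at 1.64 (adjusted p = 0.00523), and Dll1 in NaJa-G without DMSO day 1 replicate 3, at 1.10 (adjusted p = 0.00354).

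Between lines at day 1, the response was called different for 5 of 10 genes in NaJa-F against NaJa-D (3 higher, 2 lower), where 8.79% of all genes were called. In NaJa-G against NaJa-D it was 5 (3 higher, 2 lower) against 36.4%, and in NaJa-G against NaJa-F 3 (1 higher, 2 lower) against 33.5%. The day 5 counts were 3 in NaJa-F against NaJa-D (2 higher, 1 lower), 5 in NaJa-G against NaJa-D (2 higher, 3 lower) and 5 in NaJa-G against NaJa-F (1 higher, 4 lower). The shares of all genes were 8.85%, 21.9% and 24.2%. The 5 genes of NaJa-F against NaJa-D at day 1 were Notch1, Jag1 and Hey1, higher, and Notch3 and Dll4, lower. Hey1 and Dll4 stood in the table through groups of this comparison. Their calls and this count were thus not independent of the 1 CPM limit. The same holds for Dll4 in the day 5 counts of NaJa-F against NaJa-D and NaJa-G against NaJa-F. The NaJa-F against NaJa-D count at day 1 was 3 without NaJa-D DMSO day 1 replicate 2, NaJa-D encorafenib day 1 replicate 1 or NaJa-F DMSO day 1 replicate 3. The background of this comparison rested on NaJa-D encorafenib day 1 replicate 3, since 1240.0 genes were called with it and 3937 without it. Without that library 3104 genes, against 1029 with it, were called for the response of NaJa-D at day 5 minus day 1. The Notch3 difference there was -1.78 (SE 0.38, adjusted p = 0.00162), and -1.66 (adjusted p = 0.0124) without NaJa-F DMSO day 1 replicate 3, with an adjusted p of 0.0104 for the compared groups alone. The Notch3 responses of NaJa-G were not called different at day 1, but DESeq2 and limma-trend called them against NaJa-D, at -0.78 and -0.91, and against NaJa-F, at 0.95 and 0.88 (adjusted p = 0.00666 to 0.00955). The count for NaJa-G against NaJa-F at day 1 was 0 or 1 without any 1 of 8 libraries, which were the 3 NaJa-F DMSO, NaJa-F encorafenib replicates 2 and 3, NaJa-G DMSO replicate 1 and NaJa-G encorafenib replicates 1 and 2 of that day. At day 5 it was 3 without NaJa-G DMSO day 5 replicate 3. Without NaJa-D DMSO day 5 replicate 3 the Notch2 response of NaJa-F exceeded that of NaJa-D at day 5 by 0.38 (adjusted p = 0.00387), and without NaJa-F encorafenib day 5 replicate 1 the Jag2 response did so by 0.61 (adjusted p = 0.00172). At day 1, NaJa-G exceeded NaJa-D for Hey1 by 1.91 (adjusted p = 0.00824) with NaJa-D encorafenib day 1 replicate 2 left out, and for Notch2 by 0.34 (adjusted p = 0.00748) with replicate 3 of that group left out.

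Of 46 other genes of the pathway, 37 were in the table and the rest were not analysed here. With encorafenib at day 1, NaJa-D had 13 of the 37 called higher and 8 lower, NaJa-F had 8 higher and 3 lower, and NaJa-G had 20 higher and 4 lower. Of all genes in these comparisons 23.7%, 17.5% and 35.3% were called higher and 21.2%, 12% and 28.7% lower. By day 5, NaJa-D had 8 higher and 7 lower, NaJa-F 6 higher and 3 lower, and NaJa-G 12 higher and 6 lower, where 18.3%, 9.70% and 28.5% of all genes were called higher and 14.7%, 8.50% and 24.7% lower. These shares are also the background for the smaller lists, and no list was tested as a set. The median log2 fold change of the 37 ranged from 0.02 to 0.27 over these 6 comparisons, and that of all genes from -0.02 to 0.04. In the ubiquitination and trafficking list no gene was called lower, and those called higher were 6 of 10 at day 1 and 4 at day 5 for NaJa-D, 3 at each day for NaJa-F, and 6 then 4 for NaJa-G. Neurl1a, an E3 ligase that promotes ligand endocytosis, had log2 fold changes of 1.62, 1.09 and 3.04 at day 1 and 1.56, 1.2 and 2.01 at day 5, all called. In the same order of lines Dtx4, a Deltex E3 ligase, rose by 1.03, 1.21 and 1.62 at day 1, with day 5 values of 1.47, 1.19 and 3.70. Lfng, the Fringe glycosyltransferase that tunes receptor preference for Delta-like over Jagged ligands, rose by 0.71, 0.45 and 0.86 at day 1 and 0.54, 0.46 and 0.72 at day 5. The NaJa-F value of day 5 was 0.29 (adjusted p = 0.0644) without NaJa-F encorafenib day 5 replicate 2.

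In the nucleus, Rbpj, the DNA-binding partner of all Notch receptors, fell in all 6 comparisons. Its log2 fold changes were -0.69, -0.59 and -1.12 at day 1 and -0.66, -0.45 and -0.61 at day 5, with adjusted p from 2.52e-18 to 9.42e-08. Kat2b, a histone acetyltransferase of the activation complex, rose in all 6, by 0.52 to 1.18. Of the 11 nuclear effectors and corepressors, NaJa-D had 1 higher and 4 lower at day 1, NaJa-F 1 higher and 3 lower, and NaJa-G 3 higher and 2 lower. By day 5 these counts were 1 higher and 4 lower, 1 and 2, and 2 and 5. Among the 9 cleavage genes, NaJa-D had 3 higher and 2 lower at day 1, NaJa-F 2 higher and 0 lower, and NaJa-G 6 higher and 1 lower. By day 5 these were 2 higher and 2 lower, 1 and 0, and 3 and 0. Of all genes, 44.9%, 29.5% and 64.0% were called in either direction at day 1, and 33.0%, 18.2% and 53.2% at day 5. Aph1c, a gamma-secretase subunit at 0.303 to 1.22 CPM in DMSO at day 1, rose in NaJa-G by 2.01 and 2.03. Its near-identical paralog Aph1b can share reads with it, so its value is uncertain. Hes6, the only other HES or HEY family gene of 6 in the table and an antagonist of Hes1, rose at day 1 and fell at day 5 in NaJa-G (1.33 and -1.06) and in NaJa-F (0.50 and -0.82). Notch4, a receptor at 3.13 CPM in NaJa-G in DMSO at day 1, rose there by 0.89 and 1.75.

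Between the lines in DMSO, most genes of receptor cleavage were called lower in NaJa-F and NaJa-G than in NaJa-D. Of 9, 0 were called higher and 8 lower in NaJa-F, where 32.6% of all genes were called higher and 29.0% lower. In NaJa-G 2 were called higher and 7 lower, against 33.3% and 34.1% of all genes. The list was not tested as a set, and its log2 differences had medians of -0.66 and -0.54 against 0.02 and 0.01 over all genes. Ncstn, the substrate receptor subunit of gamma-secretase, differed by a log2 value of -0.73 in NaJa-F. Lfng was lower by a log2 difference of -1.37 and -1.55. Dtx3, a further Deltex gene, was higher by 2.82 and 3.48, and Dtx4 differed by 1.21 in NaJa-F and -1.75 in NaJa-G. Over the 37 pathway genes, 10 were higher and 17 lower in NaJa-F against NaJa-D, 14 and 18 in NaJa-G against NaJa-D, and 11 and 9 in NaJa-G against NaJa-F, where 25.2% of all genes were higher and 29.2% lower.

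Genes of the intestinal lineages that Notch is known to balance were also counted. Of 12 secretory lineage genes 2 were in the table, Muc2 and Clca1, at a summed level of no more than 2.92 CPM in any library. Muc2, the main goblet cell mucin, rose in NaJa-G at day 5 by 1.95, a call lost without NaJa-G DMSO day 5 replicate 3 (adjusted p = 0.0155), and no other secretory call was made with encorafenib. Of 12 absorptive lineage genes 8 were in the table. With encorafenib at day 1, NaJa-D had 4 higher and 2 lower, NaJa-F 2 higher and 2 lower, and NaJa-G 3 higher and 4 lower. By day 5 these were 2 higher and 4 lower, 1 and 4, and 1 and 5. The shares of all genes called in either direction were 44.9%, 29.5% and 64.0% at day 1 and 33.0%, 18.2% and 53.2% at day 5. Cdh17, an intestinal cadherin, fell by 1.98 to 4.94 in the 6 comparisons, and Car2, a carbonic anhydrase, rose by 0.79 to 2.64.

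Across the 12 group means of log2 CPM, the genes with the most similar pattern were found among 10256 genes with a mean of at least 2 log2 CPM. These Pearson correlations describe 12 points that share lines, controls and scaling. For Notch3 they were Rhbdd2 (0.9853), Sdf2 (0.9791), Por (0.9769), for Jag1 Man1a (0.9802), Mest (0.976), Lin54 (0.9735) and for Jag2 Fut9 (0.9827), Tmem101 (0.98), Pot1a (0.9767). For Nrarp they were Areg (0.9493), Fam136a (0.943), Ncoa5 (0.9376), where Areg encodes amphiregulin, a ligand of the EGF receptor. For Notch2 they were Mga (0.9734), Zfp398 (0.9457), Lrp6 (0.9288), for Hes1 Bcl7c (0.9671), Bpgm (0.9607), Mtfr1 (0.9466), for Hey1 Lrrc40 (0.9751), Lancl2 (0.9736), Nusap1 (0.9671) and for Dll1 Mob1b (0.956), Nupl2 (0.9422), Rint1 (0.9406). The values were lower for Notch1, at Tmem123 (0.9091), Arid1b (0.8908), Diaph2 (0.8901), and for Dll4, at Cxcl1 (0.8237), Rabl2 (0.822), Msrb2 (0.8146). Among the 10 Notch genes, Notch3 and Hey1 had the most opposed patterns, with a correlation of -0.958, and Notch3 and Jag2 were at 0.728. Hey1 held 1 to 15 counts per library in NaJa-D and stood in the table through groups of NaJa-F and NaJa-G. The correlations of Hey1 and Dll4 were thus not independent of the 1 CPM limit.

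Ordered by group mean, Notch3 ran from 33.8 CPM in NaJa-D encorafenib day 5 to 0.491 CPM in NaJa-F DMSO day 1. The 4 NaJa-D groups led and each was separated without overlap from the next, while of the 7 remaining neighbour pairs 1 was separated. For Jag2, 8 of 11 neighbouring groups did not overlap, from 305 CPM in NaJa-D DMSO day 1 to 48.7 CPM in NaJa-G encorafenib day 5. For Jag1, 7 of 11 did not overlap, from 143 CPM in NaJa-D DMSO day 1 to 23.2 CPM in NaJa-G encorafenib day 1. Notch2 had 4 separated pairs, Notch1, Dll1 and Hes1 had 3 each, Hey1 had 2, and Dll4 and Nrarp had 1 each. For Nrarp that pair set NaJa-F encorafenib day 1 above NaJa-G encorafenib day 1, so the 2 treated NaJa-G groups stood below all other groups. For Hey1 the separated pairs set NaJa-G DMSO day 5 above all groups and the 4 NaJa-D groups below the rest. As Hey1 and Dll4 stood in the table through their highest groups, their orders are description only. Separated pairs were not counted for the other genes of the table. These counts therefore do not show whether the Notch genes were separated more often than other genes.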

How the data were processed

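RNA was sequenced from 34 libraries of 3 cell lines. Per the submitters' processing notes the authors trimmed reads with Trimmomatic (0.39) and aligned them with STAR (2.5.2b) to mm10. The counting tool, its annotation and its use of strand are not given in the sources used here. The deposited file holds raw counts per Ensembl gene for 14107 genes, each above 1 CPM in at least 2 libraries, with a smallest summed count of 360. Symbols, positions and exon lengths came from GENCODE M21 (GRCm38).

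Counts were scaled with TMM and tested, two-sided, with limma (3.58.1) and voom in R (4.3.3), with 1 mean per group and Benjamini-Hochberg adjustment over all genes at 0.01. The study's methods name limma, TMM and that threshold, and voom was chosen here. There were 21 comparisons: lines in DMSO as the mean of both days, encorafenib against DMSO, day 5 against day 1 in DMSO, and differences of responses. CPM and RPKM are TMM-scaled. Precision at 46007050 to 80121299 counts per library is limited by low counts of Dll4, Hey1 and Nrarp. Replicate libraries differed by more than counting noise, so none was a duplicate.

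The 10 Notch genes and the other lists were chosen with earlier results of these data known. All 10 were reported in every group. Of the other lists at most 4 genes per comparison were named, those with the largest absolute log2 fold change among called ones, and for each Notch gene the 3 genes with the highest correlation. A gene that this rule would name is not reported here. Alternatives were edgeR (4.0.16), DESeq2 (1.42.0), limma-trend, RLE scaling, library size only, filterByExpr, the compared groups alone, each DMSO day alone, a replicate block and each library left out. The scripts were tested on simulated data.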

Additional observations from a re-analysis of the deposited data

Results flagged for a closer look

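The results below were singled out because the response to encorafenib, the log2 fold change against DMSO of the same line and day, differed between days or between lines by the limma test of the difference itself. In NaJa-D the response at day 5 minus that at day 1 was -1.02 for Notch3 (adjusted p = 2.61e-05) and 0.69 for Jag1 (adjusted p = 1.4e-05). In NaJa-F the response at day 5 minus that at day 1 was 0.56 for Jag1 (adjusted p = 0.000359). In NaJa-G the response at day 5 minus that at day 1 was -0.66 for Jag2 (adjusted p = 0.000222), 2.20 for Dll4 (adjusted p = 0.00175) and -0.78 for Hes1 (adjusted p = 9.39e-07).

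At day 1 the response of NaJa-F minus that of NaJa-D was 1.18 for Notch1 (adjusted p = 0.00338), -1.78 for Notch3 (adjusted p = 0.00162), 0.99 for Jag1 (adjusted p = 7.12e-08), -2.20 for Dll4 (adjusted p = 0.00158) and 2.12 for Hey1 (adjusted p = 0.00374). At day 1 the response of NaJa-G minus that of NaJa-D was 1.42 for Notch1 (adjusted p = 6.26e-05), 0.63 for Jag1 (adjusted p = 1.48e-05), -2.66 for Dll4 (adjusted p = 0.000224), 0.39 for Hes1 (adjusted p = 0.00416) and -1.87 for Nrarp (adjusted p = 0.00106). At day 1 the response of NaJa-G minus that of NaJa-F was -0.36 for Jag1 (adjusted p = 0.00531), 0.34 for Hes1 (adjusted p = 0.00757) and -1.46 for Nrarp (adjusted p = 0.00656). At day 5 the response of NaJa-F minus that of NaJa-D was 0.96 for Notch1 (adjusted p = 0.0043), 0.86 for Jag1 (adjusted p = 9.58e-07) and -2.30 for Dll4 (adjusted p = 0.000217). At day 5 the response of NaJa-G minus that of NaJa-D was 1.45 for Notch1 (adjusted p = 1.25e-05), 0.52 for Notch2 (adjusted p = 0.000521), -0.78 for Jag2 (adjusted p = 4.75e-05), -0.65 for Hes1 (adjusted p = 4.99e-05) and -2.47 for Nrarp (adjusted p = 0.000337). At day 5 the response of NaJa-G minus that of NaJa-F was -0.61 for Jag1 (adjusted p = 8.51e-05), -1.15 for Jag2 (adjusted p = 1.85e-07), 2.03 for Dll4 (adjusted p = 0.00204), -0.51 for Hes1 (adjusted p = 0.00111) and -2.80 for Nrarp (adjusted p = 0.00011). Several of these calls were lost without single libraries or under other settings, as given with each gene above. The day 1 difference of Hes1 between NaJa-G and NaJa-F, for example, was lost without 9 of 12 single libraries. Dll4 and Hey1 stood in the table through their highest groups. The day 5 values rest on 2 libraries for NaJa-F encorafenib and for NaJa-G DMSO, and no cause was tested for any of these differences.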

How the results depend on the processing

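Over the 210 log2 differences of the 10 Notch genes, direction and side of the threshold held for 207 with DESeq2, 207 with edgeR, 208 with RLE scaling, 203 with limma-trend, 203 with library size only, 210 with filterByExpr and 189 with the compared groups alone. Changes of sign among uncalled values are not counted. Of 1870 values with a library left out, 87 lost and 9 gained their call and none with a call changed sign. The only called value that reversed was Jag1 in NaJa-F against NaJa-D, which was 0.062 in DMSO day 5 alone. Replicate numbers did not pair the libraries, since correlations of same-numbered deviations ran from -0.272 to 0.215. With the replicate block, 209 of the 210 values held and the Hes1 response of NaJa-G minus NaJa-F at day 1 (0.34, adjusted p = 0.011) lost its call. The cause of these changes was not tested, except that leaving out libraries or groups leaves fewer samples.

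The number of Notch genes called fell with limma-trend from 2 to 1 for the response of NaJa-D at day 5 minus day 1. With the compared groups alone it fell to 3 for encorafenib in NaJa-D at day 1, 1 for encorafenib in NaJa-F at day 5, 1 for time in NaJa-G and 2 for the response of NaJa-F minus NaJa-D at day 1. With single libraries left out it ran from 2 to 4 for time in NaJa-D, 3 to 5 for the response of NaJa-F minus NaJa-D at day 1, 3 to 4 for encorafenib in NaJa-F at day 1, 1 to 2 for the same at day 5 and for the response of NaJa-F at day 5 minus day 1, 0 to 2 and 3 to 5 for the response of NaJa-G minus NaJa-F at days 1 and 5, and 2 to 4 for time in NaJa-G.

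Over all genes, calls for the response of NaJa-F minus NaJa-D at day 1 were 1240.0, 2143 with DESeq2, 415 with the compared groups alone and 645 to 3937 with a library left out. The compared groups alone gave 3546 for encorafenib in NaJa-D at day 1, 1182 for time in NaJa-G and 261 for the response of NaJa-D at day 5 minus day 1. With a library left out the last was 581 to 3104, the response of NaJa-F minus NaJa-D at day 5 was 771 to 1308 and time in NaJa-F was 1462 to 1944. With library size only, the median over all genes moved by 0.122 and 0.118 when NaJa-F or NaJa-G was set against NaJa-D, 0.177 for time in NaJa-D and -0.131 for the response of NaJa-G minus NaJa-D at day 1. It moved the share of calls that were higher from 52.9% to 66.5%, 49.4% to 59.9%, 47.4% to 81.7% and 55.5% to 40.2% in these comparisons. In others it moved from 52.8% to 63.6% for encorafenib in NaJa-D at day 1, 58.1% to 78.6% and 50.6% to 62.4% for time in NaJa-F and NaJa-G, 51% to 34.7% for the response of NaJa-F minus NaJa-D at day 1 and 64.3% to 51.4% for that of NaJa-G minus NaJa-D at day 5. Depth limits Dll4, Hey1 and Nrarp, with as few as 1 count in a library.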
